A study of Homo sapiens with 6 samples.

Results

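Interferon-stimulated genes, together with the sensors, receptors and transcription factors that act before them, were compared between 3D and 2D cultures of HCC827 cells. The members were chosen by gene symbol, as 57 names that stand for 56 genes, since DDX58 is the older name of RIGI. A probe set of its own was found for 49 of these genes among the 14232 genes that the arrays measured in this way, and these 49 are the members counted below. USP18, IFITM2, IFITM3, GBP1, GBP2 and UBD, 6 genes in all, were measured only by probe sets shared with other genes and are described apart. STAT2, the remaining gene, was not analysed here.

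Interferons are secreted proteins that warn cells of viral or other foreign nucleic acid. Sensors such as RIGI, IFIH1 and TLR3 detect RNA and switch on interferon genes through factors such as IRF3 and IRF7. The secreted type I interferon then binds receptors that contain IFNAR1. Interferon gamma binds a separate receptor, which contains IFNGR1. Type I receptors act through a complex of STAT proteins and IRF9, which binds the interferon-stimulated response element (ISRE) in promoters and induces antiviral effectors such as the MX, OAS and IFIT genes. Epithelial cells of the lung express this pathway, and parts of it can be active in tumour cells without infection.

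HCC827 is an established human lung adenocarcinoma line with an in-frame deletion in EGFR, and all arrays analysed here hold this 1 line. The 2D group was 3 arrays of cells grown without coating, and the 3D group was 3 arrays of hanging drop spheroids embedded into Matrigel, with no drug named for either. Dimensionality and Matrigel changed together between the groups and cannot be told apart. The labels number the replicates but do not say whether they came from separate cultures, and the p-values therefore cover only the spread of these 6 arrays, which may be technical. All values are log2 signals after RMA, and a log2 difference is always 3D minus 2D.

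Across all 22011 probe sets, 32 were higher and 52 were lower in 3D (limma, 2-sided, adjusted p under 0.05). On the first principal component 3D replicate 2 had a score of 58.8, against 22.8 and -2.99 for 3D replicates 1 and 3. The 2D replicates 1 to 3 had -33.3, -8.04 and -37.2. The array 3D replicate 2 thus lay farthest from 2D, and 3D replicate 3 lay next to 2D replicate 2. The counts for the members are also given without 3D replicate 2, which leaves out the 3D array least like 2D on this component. Of 10 measured epithelial markers, 0 passed the test, all lay below 0 and in 6 the 3D arrays lay below all 2D arrays, with a mean signal of 9.31 to 9.44 in the 2D arrays and 8.74 to 8.99 in the 3D arrays. Of 11 measured leukocyte markers, 0 passed the test and 10 lay above 0, with a mean signal of 5.29 to 5.45 in 2D and 5.49 to 5.77 in 3D. The defining leukocyte gene PTPRC lay at 3.60 in 2D and 3.69 in 3D, while the monocyte gene CD14 differed by 0.71 on the log2 scale (adjusted p = 0.144). Of 9 fibroblast markers 0 passed and all 9 lay above 0, with a mean signal of 4.88 to 5.06 in 2D and 5.06 to 5.27 in 3D. Of 7 endothelial markers 0 passed and 5 lay above 0, with a mean signal of 5.04 to 5.10 in 2D and 5.14 to 5.24 in 3D. Over all genes 59.6% lay above 0, and in 9.75% all 3D arrays lay below 2D. A mean signal below the 40th percentile of all probe sets was found for 8 of the leukocyte, 7 of the fibroblast, 6 of the endothelial and 1 of the epithelial markers. Whether such dim signals exceeded background is not known. The part of other cells in the results was not tested, and in bulk RNA fewer cells with a transcript and less of it per cell cannot be told apart.

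Of the 49 members, IFI27 was higher in 3D, 0 were lower and the other 48 missed the threshold of limma's adjusted p (0.05). Over all genes with a probe set of their own, 0.162% were called higher and 0.246% lower, or 0.408% in either direction. The members leaned to one side: the middle member had a log2 difference of 0.38, the middle of all genes one of 0.07, and 43 of 49 lay above 0, where 59.6% of all genes did. In 16 members (32.7%) all 3D arrays lay above all 2D arrays, a pattern shown by 14.3% of all genes. The reverse was seen in 1 member, GBP3, and in 9.75% of all genes. At an unadjusted p under 0.05, 18 members (36.7%) were higher and 0 were lower, against 7.46% and 7.12% of all genes. Without 3D replicate 2, 5 members were called higher and 0 lower (0.401% and 0.33% of all genes), 28 had an unadjusted p under 0.05 with higher signals (7.87% of all genes), and in 30 the remaining 3D arrays lay above all 2D arrays (20.7% of all genes). The count of calls was 0 without any 1 of the 2D arrays, as it was over all 22011 probe sets in those fits. With array weights it was 7, where 0.71% of all genes were called higher and 1.17% lower. The members were chosen with earlier results of these data known, so these counts describe the list and are not a test of it.

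**Figure D1:**
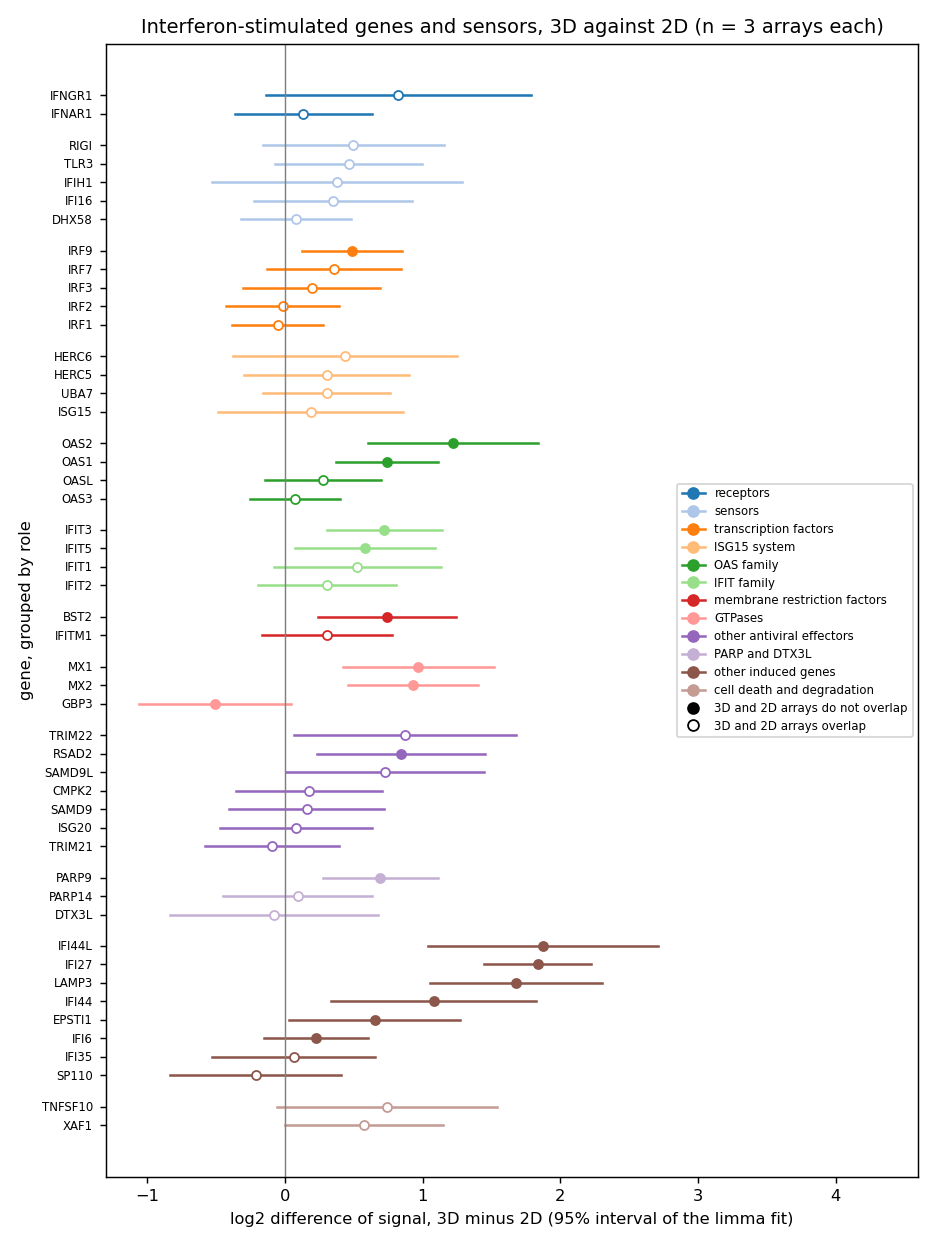
The log2 difference of signal (3D minus 2D, horizontal axis) is drawn for the 49 members, grouped by role and coloured by group, with the 95% interval of the limma fit over 3 arrays in each culture. Filled points mark members with no overlap of the 3D and 2D arrays, and 43 points lie to the right of 0, and those of IFI44L, IFI27, LAMP3, OAS2 and IFI44 lie beyond 1.

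IFI27, a mitochondrial and nuclear protein strongly induced by type I interferon, was the member that passed. Its signals were 6.80, 6.61 and 6.61 in the 2D replicates 1 to 3 and 8.28, 8.56 and 8.69 in the 3D replicates. All 3D arrays lay above all 2D arrays and close to each other. The mean went from 6.67 ± 0.11 (SD, n = 3) to 8.51 ± 0.21 (SD, n = 3), a 3.57-fold higher signal (log2 difference 1.84, standard error (SE) 0.17, limma, adjusted p = 0.015). The difference lay between 1.74 and 1.95 without single arrays, and the call was lost without 2D replicate 1, 2 or 3, at adjusted p-values of 0.123, 0.0782 and 0.111. In each of these fits without a 2D array, 0 of all 22011 probe sets were called.

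To show what the promoters of such genes hold, the 250 bases before the start of 5 members are printed from RefSeq (GRCh38.p14), in gene orientation. IFI27 and IFI44L had the largest differences among members with a promoter in the table, OAS1 and OAS3 are neighbours with unlike differences, and ISG15 is the gene after which such genes are often named. Capitals mark every match to the core of the ISRE, which reads GAAA, any 2 bases and GAAA again, on either strand.
IFI27 (chr14:94110486-94110735, plus strand): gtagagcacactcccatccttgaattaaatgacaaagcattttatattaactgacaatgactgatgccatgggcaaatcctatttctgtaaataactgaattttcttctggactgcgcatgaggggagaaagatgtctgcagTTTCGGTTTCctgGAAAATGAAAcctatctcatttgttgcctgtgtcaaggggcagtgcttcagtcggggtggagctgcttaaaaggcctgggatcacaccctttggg
IFI44L (chr1:78620198-78620447, plus strand): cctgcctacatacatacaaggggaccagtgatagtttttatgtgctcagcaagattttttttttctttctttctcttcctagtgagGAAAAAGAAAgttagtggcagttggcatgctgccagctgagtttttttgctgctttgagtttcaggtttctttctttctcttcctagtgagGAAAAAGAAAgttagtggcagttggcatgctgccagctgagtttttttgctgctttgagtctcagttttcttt
OAS1 (chr12:112906712-112906961, plus strand): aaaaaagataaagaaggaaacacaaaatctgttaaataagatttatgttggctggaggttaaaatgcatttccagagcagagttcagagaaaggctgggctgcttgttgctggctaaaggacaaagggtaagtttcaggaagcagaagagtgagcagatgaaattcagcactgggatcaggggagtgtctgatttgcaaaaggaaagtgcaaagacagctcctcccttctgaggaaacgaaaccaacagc
OAS3 (chr12:112938224-112938473, plus strand): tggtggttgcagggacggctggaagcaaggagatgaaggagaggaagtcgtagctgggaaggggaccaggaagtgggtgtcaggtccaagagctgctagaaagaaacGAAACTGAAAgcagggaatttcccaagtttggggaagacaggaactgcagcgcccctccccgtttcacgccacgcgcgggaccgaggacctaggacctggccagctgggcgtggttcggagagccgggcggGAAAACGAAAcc
ISG15 (chr1:1013247-1013496, plus strand): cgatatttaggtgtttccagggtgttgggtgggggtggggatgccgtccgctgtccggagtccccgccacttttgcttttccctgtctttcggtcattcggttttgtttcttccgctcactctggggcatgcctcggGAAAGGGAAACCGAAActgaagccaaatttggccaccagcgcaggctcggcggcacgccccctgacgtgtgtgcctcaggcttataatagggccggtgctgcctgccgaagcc
In IFI27 the matches began 108 and 95 bases before the start, and both overlapped a match to TTCNNNGAA, the core of the element bound by STAT dimers, which began at 101. IFI44L held 2 matches, at 164 and 73, and ISG15 held 2 that overlap each other, at 113 and 107. OAS3 also held 2, at 143 and 12, and OAS1 held 0. Near its end the OAS1 stretch does hold GAAA, 1 base and GAAA, a spacing that the search did not count. A promoter was given for 38 of the 49 members, and 18 of them (47.4%) held at least 1 match, against 2.54% of the 11386 promoters of all measured genes in the table. For TTCNNNGAA, searched in the same bases, it was 11 of 38 members (28.9%) and 6.06% of the promoters of all measured genes. The members with an ISRE match had a median log2 difference of 0.45, and so did those without. In members whose 3D arrays all lay above 2D, 8 of 13 held the ISRE match, against 10 of the other 25. Such matches are a description of the letters and show no binding.

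Of the other induced genes, IFI44L had a difference as large as that of IFI27 with a wider spread, and the rest had smaller ones. IFI44L, an interferon-induced protein of the cytoplasm, had signals of 7.84, 7.50 and 7.83 in 2D and of 10.01, 8.70 and 10.09 in 3D. The 3D arrays all lay above 2D, and 3D replicate 2 was the lowest of them by more than 1 log2 unit. The log2 difference was 1.87 (SE 0.36, adjusted p = 0.0882), and without 3D replicate 2 it was 2.33 and passed the test (adjusted p = 0.0078). LAMP3, a lysosomal membrane protein known from mature dendritic cells and induced by interferon, had signals of 5.94, 5.77 and 6.00 in 2D and of 7.78, 6.96 and 8.00 in 3D. The order of the 3D arrays was that of IFI44L. Its log2 difference was 1.68 (SE 0.27, adjusted p = 0.0607), and it was 1.99 without 3D replicate 2 (adjusted p = 0.00878). IFI44, the neighbour of IFI44L, had 8.33, 7.78 and 8.32 in 2D and 9.63, 8.50 and 9.54 in 3D, so that 3D replicate 2 lay just above the highest 2D array. Its log2 difference of 1.08 (adjusted p = 0.207) became 1.44 without that array (adjusted p = 0.0481). IFI44L, LAMP3 and IFI44 did not pass with any other single array left out, at adjusted p-values of up to 0.30, 0.26 and 0.483 (limma). Their differences in those fits went down to 1.63, 1.47 and 0.87. EPSTI1, first described as a gene that stromal contact induces in epithelial cells, had a log2 difference of 0.65 (adjusted p = 0.31) with no overlap of the groups. IFI6, a mitochondrial inhibitor of cell death, had 0.23 (adjusted p = 0.518), also with no overlap. IFI35 and the nuclear body protein gene SP110 had 0.06 and -0.21 (adjusted p = 0.917 and 0.721), and their groups overlapped. Without 3D replicate 2 both signs turned, to -0.22 and 0.10.

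**Figure D2:**
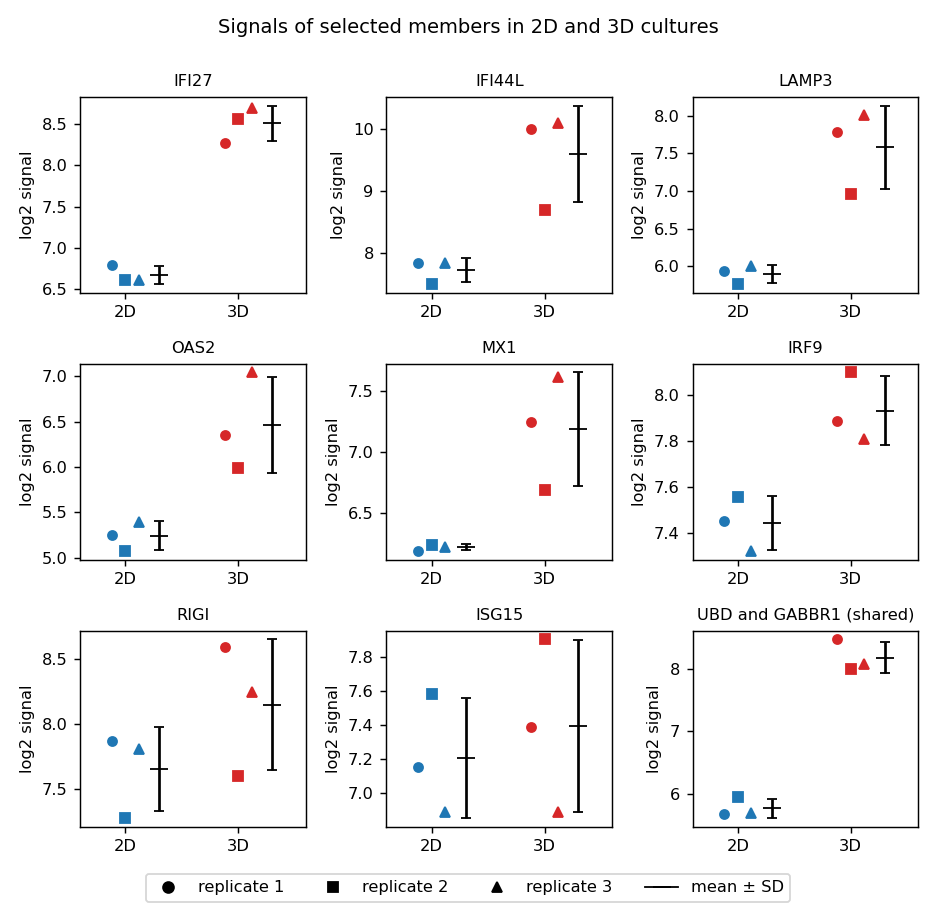
The log2 signal (vertical axis) of 8 members and of the probe set shared by UBD and GABBR1 is shown for each array in 2D (blue) and 3D (red), with the mean and SD of 3 arrays beside the points and a marker for each replicate number. IFI27 and the shared probe set have 3D arrays close together and far above 2D, IFI44L, LAMP3, OAS2 and MX1 have 3D replicate 2 nearest to 2D, and the arrays of RIGI and ISG15 overlap.

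Of the 5 measured sensors, 0 passed the test, also at an unadjusted p under 0.05, and all 5 lay above 0, between 0.08 and 0.50. Over all genes 59.6% lay above 0 and 0.408% were called. Counts in this and the other small role groups therefore do not set one role apart from another. RIGI, which binds short RNA with a triphosphate end, had signals of 7.87, 7.28 and 7.81 in 2D and of 8.59, 7.60 and 8.24 in 3D. IFIH1, which binds long double-stranded RNA, had 7.14, 6.99 and 7.36 in 2D and 8.05, 6.55 and 8.04 in 3D. In both genes 3D replicates 1 and 3 lay above all 2D arrays, while 3D replicate 2 lay among them or, for IFIH1, below them. The log2 difference of RIGI was 0.50 (adjusted p = 0.435) and that of IFIH1 was 0.38 (adjusted p = 0.653). Without 3D replicate 2 they were 0.77 and 0.88 (adjusted p = 0.185 and 0.0786). Without 3D replicate 1 they were 0.27 and 0.13, and without 3D replicate 3 they were 0.45 and 0.13. IFI16, a DNA sensor of the nucleus, had 8.80, 8.83 and 8.98 in 2D and 9.49, 8.65 and 9.51 in 3D. As in IFIH1, 3D replicate 2 lay below all 2D arrays and the other 3D arrays above them, and the log2 difference of 0.35 (adjusted p = 0.517) became 0.63 without that array. The endosomal receptor gene TLR3, at 3.95 in 2D and 4.41 in 3D, had a log2 difference of 0.46 (adjusted p = 0.382). TLR3 was dim, with a 2D mean below the 40th percentile of all probe sets, and whether its signal exceeded background is not known from these values. The same holds for IRF1, HERC5, OAS2, OASL, BST2, MX2, RSAD2, ISG20, TRIM21, TRIM22, EPSTI1 and TNFSF10. DHX58, a regulator of RIGI and IFIH1 that lacks a signalling domain, had 0.08 (adjusted p = 0.838) and -0.03 without 3D replicate 2.

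Both receptor chains among the members overlapped between the cultures. IFNGR1, the ligand-binding chain of the interferon gamma receptor, had signals of 6.73, 6.23 and 6.94 in 2D and of 8.11, 6.47 and 7.80 in 3D. With 3D replicate 2 inside the 2D range, its log2 difference of 0.83 came with an SE of 0.42 (adjusted p = 0.387). The difference was 1.32 without that array (adjusted p = 0.0755) and 0.50 without 3D replicate 1. IFNAR1, a chain of the type I receptor, had a log2 difference of 0.14 (95% interval -0.36 to 0.63, adjusted p = 0.779).

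Of the 5 transcription factors, 0 passed the test. IRF9, the DNA-binding part of the complex that acts on the ISRE, had signals of 7.45, 7.56 and 7.32 in 2D and of 7.89, 8.10 and 7.81 in 3D. It was the 1 factor whose arrays did not overlap, and here 3D replicate 2 was the highest array. Its log2 difference was 0.49 (SE 0.16, adjusted p = 0.232), between 0.40 and 0.55 without single arrays. IRF7, which amplifies the induction of interferon genes, differed by 0.36 on the log2 scale (adjusted p = 0.446), and IRF3, which starts it, by 0.20 (adjusted p = 0.671). Both had their highest 3D array in replicate 2, at 7.39 for IRF7 and 7.53 for IRF3, and without it the difference of IRF7 was 0.17 and that of IRF3 was -0.0046. IRF1, an activator induced by interferon gamma, had 5.63, 5.83 and 5.64 in 2D and 5.63, 5.67 and 5.64 in 3D. Its log2 difference was -0.05 with a 95% interval of -0.38 to 0.28, and that of its antagonist IRF2 was -0.01 with an interval of -0.42 to 0.39 (adjusted p = 0.882 and 0.974).

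The OAS enzymes make a messenger of linked adenosines that activates an RNA-degrading enzyme. OAS2 had signals of 5.25, 5.08 and 5.39 in 2D and of 6.36, 5.99 and 7.04 in 3D, and OAS1 had 7.05, 6.90 and 7.19 in 2D and 7.80, 7.64 and 7.93 in 3D. In both the groups did not overlap. Their log2 differences were 1.22 (SE 0.27, adjusted p = 0.113) and 0.74 (SE 0.16, adjusted p = 0.112), and neither passed the test. OAS3, which lies between them in the genome, had 6.31, 6.36 and 6.25 in 2D and 6.32, 6.35 and 6.48 in 3D. These groups overlapped, and the difference was 0.07 with a 95% interval of -0.25 to 0.40, whereas the intervals of OAS1 and OAS2 began at 0.37 and 0.60. OASL, a family member without the enzyme activity, had 0.27 (adjusted p = 0.493).

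All 4 IFIT genes, whose proteins bind foreign RNA ends and block translation, lay above 0 and 0 passed. IFIT3, which stabilises IFIT1, had signals of 9.04, 8.51 and 8.76 in 2D and of 9.43, 9.43 and 9.62 in 3D. The groups did not overlap, and the log2 difference was 0.72 (SE 0.18, adjusted p = 0.149). IFIT5 had no overlap either, with a difference of 0.58 (adjusted p = 0.283). In IFIT1 the array 3D replicate 2 lay at 6.83 within the 2D range, with a difference of 0.53 (adjusted p = 0.38), and IFIT2 had 0.31 (adjusted p = 0.516).

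The dynamin-like GTPases MX1 and MX2, which trap viral particles, had a narrow range of signals in 2D. MX1 had 6.19, 6.24 and 6.22 in 2D and 7.25, 6.69 and 7.62 in 3D, and MX2 had 5.74, 5.72 and 5.65 in 2D and 6.40, 6.45 and 7.06 in 3D. The groups did not overlap in either gene. The log2 differences were 0.97 for MX1 (SE 0.24, adjusted p = 0.14) and 0.93 for MX2 (SE 0.20, adjusted p = 0.113). That of MX1 was 1.22 without 3D replicate 2 (adjusted p = 0.0398). With any other single array left out MX1 did not pass, at adjusted p-values of up to 0.433 (limma) and differences down to 0.75. GBP3, a guanylate-binding protein, went the other way, with 8.64, 8.55 and 8.74 in 2D and 8.25, 7.63 and 8.52 in 3D. It was the 1 member with all 3D arrays below all 2D arrays, but its log2 difference of -0.51 did not pass (adjusted p = 0.358) and was -0.25 without 3D replicate 2.

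ISG15 is a ubiquitin-like protein that UBA7 activates and HERC5 attaches to other proteins, and HERC6 is a relative of HERC5. Of these 4 members 0 passed the test, and the groups overlapped in each. ISG15 itself had 7.15, 7.58 and 6.89 in 2D and 7.39, 7.91 and 6.89 in 3D, and its groups overlapped, with 3D replicate 2 the highest array. Its log2 difference was 0.19 (95% interval -0.49 to 0.86, adjusted p = 0.775), and it was -0.07 without 3D replicate 2. The differences of UBA7, HERC5 and HERC6 were 0.30, 0.31 and 0.44 on the log2 scale (adjusted p = 0.489, 0.581 and 0.562), none past the threshold. Without 3D replicate 2 they were 0.16, 0.54 and 0.85 (adjusted p = 0.699, 0.291 and 0.132). Without 3D replicate 3, HERC5 was at 0.10 and HERC6 at 0.16.

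Among membrane proteins, BST2, which tethers budding virus to the cell, had 4.36, 4.71 and 4.12 in 2D and 5.24, 4.83 and 5.35 in 3D. The groups did not overlap, and the log2 difference was 0.74 (SE 0.22, adjusted p = 0.20). IFITM1, which blocks the fusion of virus with the cell membrane, had 0.31 (adjusted p = 0.498).

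Of the 7 other antiviral effectors 0 passed, and 6 lay above 0. RSAD2, an enzyme that makes a chain-terminating nucleotide, had 4.91, 5.39 and 5.21 in 2D and 5.96, 5.55 and 6.53 in 3D, with no overlap and a log2 difference of 0.84 (adjusted p = 0.223). TRIM22, a ubiquitin ligase that restricts retroviruses, had 4.17, 4.02 and 4.58 in 2D and 5.20, 4.38 and 5.80 in 3D. Its 3D replicate 2 lay inside the 2D range, and the difference was 0.87 (adjusted p = 0.298). SAMD9L, which restricts translation, had 7.58, 7.33 and 7.79 in 2D and 8.64, 7.57 and 8.68 in 3D. The same array again lay inside the 2D range, and the difference of 0.73 (adjusted p = 0.325) was 1.09 without it (adjusted p = 0.0629). Without other single arrays the difference went down to 0.53. Its paralog SAMD9 had 0.16 (adjusted p = 0.772), and CMPK2, ISG20 and TRIM21 lay between -0.09 and 0.17.

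PARP9 and DTX3L form a complex that modifies histones and STAT proteins, and PARP14 is a related enzyme. PARP9 had signals of 9.95, 9.89 and 9.96 in 2D and of 10.81, 10.30 and 10.77 in 3D. The groups did not overlap, and the log2 difference was 0.69 (SE 0.18, adjusted p = 0.16). If 3D replicate 2 is left out, it was 0.86 (adjusted p = 0.0594), and with other single arrays left out it was as low as 0.60. Its partner DTX3L had 7.85, 7.64 and 7.88 in 2D and 8.02, 6.91 and 8.20 in 3D, where 3D replicate 2 was the lowest of all 6 arrays. The difference of DTX3L was -0.08 (adjusted p = 0.92) and turned to 0.32 without that array and to 0.10 with array weights. PARP14 had 0.09 (adjusted p = 0.864).

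TNFSF10 encodes the death ligand TRAIL, and XAF1 encodes an antagonist of an inhibitor of apoptosis. TNFSF10 had 4.92, 4.40 and 5.08 in 2D and 5.85, 4.77 and 6.02 in 3D, with 3D replicate 2 inside the 2D range and a log2 difference of 0.74 (adjusted p = 0.357). XAF1 had 7.02, 6.77 and 7.01 in 2D and 7.01, 7.55 and 7.96 in 3D. Here 3D replicate 1 lay inside the 2D range, and the difference was 0.57 (adjusted p = 0.329).

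Array by array, 3D replicates 1, 2 and 3 lay above all 2D arrays in 35, 26 and 36 of the 49 members, and in 39.7%, 49.4% and 31.8% of all genes. The members did not share 1 order of the 3D arrays. In 30 members 3D replicates 1 and 3 lay above all 2D arrays, as in 20.7% of all genes. In 16 of these 3D replicate 2 did so too, as in 14.3% of all genes. In the other 14, among them the sensors RIGI, IFIH1, TLR3 and IFI16, 3D replicate 2 did not. The array 3D replicate 2 was the lowest of the 3D arrays in 29 of 49 members (59.2%), while it was the lowest in 31.9% of all genes. In 11 members it was the highest, namely DHX58, IRF1, IRF3, IRF7, IRF9, ISG15, UBA7, OASL, CMPK2, ISG20 and IFI35. Leaving it out gave a higher log2 difference in 34 members and a lower one in 15. Neither these counts nor the 11 were set against all genes. Over the 49 members the median distance from the 2D mean was 0.54, 0.31 and 0.57 on the log2 scale in 3D replicates 1, 2 and 3, against 0.07, 0.15 and 0.03 over all genes. Among the 2D arrays, replicate 2 was the lowest in 26 of the members (53.1%) and in 36.3% of all genes.

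**Figure D3:**
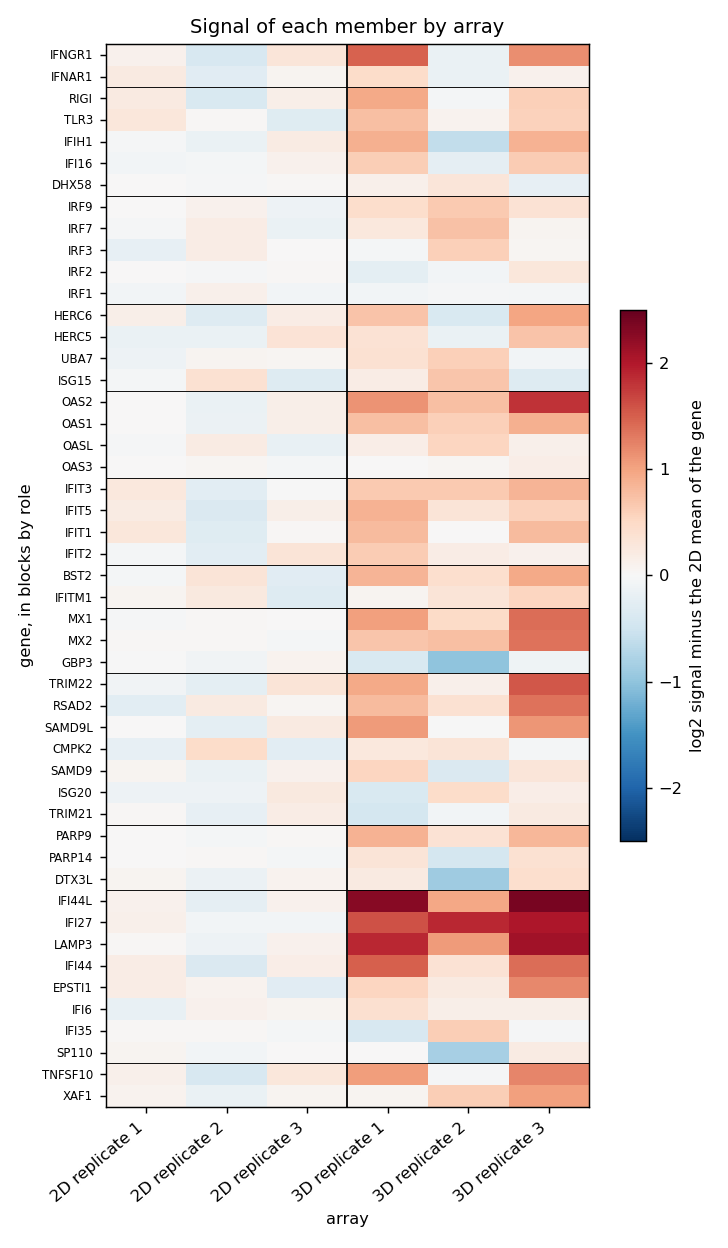
Each row is 1 of the 49 members, in blocks by role, and each column is 1 array, with the colour giving the log2 signal minus the mean of the 3 2D arrays of that gene. The columns of 3D replicates 1 and 3 are red for most members, and that of 3D replicate 2 is paler or blue for the sensors RIGI, IFIH1, TLR3 and IFI16, and red for IFI27, IRF9 and ISG15.

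Several members lie within 3 genes of another in the RefSeq annotation, in 8 clusters of 20 genes. The genes MX2 and MX1 had like differences of 0.93 and 0.97. The genes IFI44L and IFI44, at 1.87 and 1.08, both had no overlap of the groups. Other clusters were uneven, as OAS1, OAS3 and OAS2 at 0.74, 0.07 and 1.22, PARP9 and DTX3L at 0.69 and -0.08, CMPK2 and RSAD2 at 0.17 and 0.84, and SAMD9 and SAMD9L at 0.16 and 0.73. Differences between neighbours were not tested. Related genes of these families may share probe sequence, and how far the probes tell them apart was not tested.

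**Figure D4:**
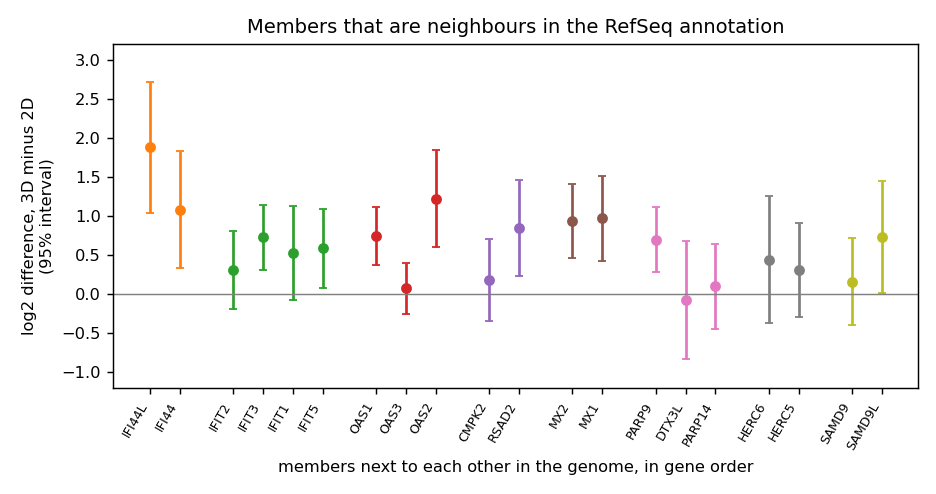
The log2 difference (3D minus 2D, vertical axis) with its 95% interval is shown for 20 members that lie within 3 genes of another member, in gene order along the horizontal axis and coloured by cluster. The points of MX2 and MX1 lie side by side at 0.93 and 0.97, and OAS3 lies at 0.07 between OAS1 and OAS2.

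The largest signal change in the set was in a probe set that carries the symbols of UBD and GABBR1. UBD is a ubiquitin-like protein that marks proteins for degradation and is induced by interferon gamma and TNF, and GABBR1 is a receptor for a neurotransmitter that lies beside it. The probe set had signals of 5.67, 5.95 and 5.70 in 2D and of 8.47, 7.99 and 8.07 in 3D. All 3D arrays lay above 2D by more than 2 log2 units, and the probe set cannot part the genes. The log2 difference was 2.40 (SE 0.18, limma, adjusted p = 0.015), a call lost without 2D replicate 1, 2 or 3 at adjusted p-values of 0.123, 0.0759 and 0.109. Those fits called 0 of all 22011 probe sets. No fold is given, because the 2D mean was dim (percentile 37.8) and may lie near background.

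The other 8 shared probe sets did not pass the test. A probe set of GBP1 and GBP3 had a log2 difference of 0.51 (adjusted p = 0.298) with no overlap, opposite in sign to the -0.51 of the probe set of GBP3 alone. The probe set of TRIM5 and TRIM22 had -0.49 (adjusted p = 0.357), opposite to the 0.87 of TRIM22 alone. The 2 probe sets that carry both IFITM2 and IFITM3 had 0.62 and -0.39 (adjusted p = 0.323 and 0.534), so no direction is given for these genes. The probe set of PLVAP and BST2 had 0.43 (adjusted p = 0.305), and that of BCL2L12 and IRF3 had 0.29 (adjusted p = 0.406), both with the sign of the member alone. USP18, which removes ISG15 from proteins, shares its probe set with USP41P, and the difference was 0.01 (adjusted p = 0.987). The probe set of GBP7 and GBP2 had -0.06 (adjusted p = 0.926).

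Of 93 other measured genes of the interferon pathway 0 were higher and 0 lower (limma, adjusted p under 0.05). The unadjusted p was under 0.05 for 9 above and 6 below 0, and for 7.46% and 7.12% of all genes. Their median log2 difference was 0.08, close to the 0.07 of all genes. In 17 (18.3%) all 3D arrays lay above 2D, against 14.3% of all genes. All 3D arrays lay below 2D in 7 of the 93, and in 9.75% of all genes. The 9 measured interferon genes were all dim and had a median of -0.06. Among them the log2 difference of IFNA8 was 0.35 (adjusted p = 0.452) and that of IFNK was -0.24 (adjusted p = 0.677). Of 6 further receptor chains and kinases, IFNGR2, the second chain of the interferon gamma receptor, had 0.53 with no overlap (adjusted p = 0.272), and the kinase gene JAK1 had -0.33 (adjusted p = 0.394). Of 16 other genes of nucleic acid and pattern sensing (adaptors, kinases and further sensors), IKBKE, a kinase of IRF3 and IRF7, had 0.42 (adjusted p = 0.28), and the DNA sensor gene AIM2 had 0.39 (adjusted p = 0.439). Of 10 other factors and feedback genes, BATF2 had 0.58 (adjusted p = 0.289) and NLRC5, an activator of MHC class I genes, had 0.21 (adjusted p = 0.549).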

How the data were processed

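RNA of HCC827 cells was hybridised to 6 Affymetrix human exon arrays, 3 per culture. The deposited log2 values were made by the authors with oligo's RMA (no version given in the sources used here) for 22011 probe sets, of which 14432 carry 1 gene symbol in the platform annotation, 2408 several and 5171 none. The brightest probe set with its symbol alone stood for a gene. The tool was limma 3.58.1 (R 4.3.3), run over all probe sets (2 groups, no block), with Benjamini and Hochberg adjusted p-values and a threshold of 0.05, and the fit was tested on simulated data. Members and lists were chosen with earlier results of these data known. Named were all sensors, receptors and factors, members past the threshold, and in each other role the 3 members with the largest difference and the brightest. IFI6, IFI35, EPSTI1, SP110, IFIT2, OAS3, CMPK2, ISG20 and TRIM21 were named beyond this rule. Folds are given only where the 2D mean lies above the 40th percentile. Promoters came from RefSeq. For the array no genome build is named in the sources used here, so RefSeq served for names, neighbours and promoters. The settings varied were a filter for dim probe sets, an intensity trend, a robust prior, array weights, a replicate block, single arrays left out, quantile normalization again, a minimum log2 difference of 1, 1 probe set per gene and the mean over probe sets. The counts of unadjusted p-values and of groups that do not overlap without 3D replicate 2, and the alternatives for the other pathway genes and for UBD, were chosen after seeing the data. Arrays have no read depth, and precision is limited by their number.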

Additional observations from a re-analysis of the deposited data

How the results depend on the processing

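The calls depended on which arrays and probe sets were used, and the direction of the members as a list did not. Without single arrays, 0 to 72 probe sets were higher and 0 to 122 lower in 3D, 0 to 5 members were higher, and the median of the members lay between 0.32 and 0.55, with the highest value without 3D replicate 2. With array weights 132 probe sets were higher and 283 lower, and 7 members were higher (OAS2, MX1, MX2, PARP9, IFI27, IFI44L and LAMP3). With 1 probe set per gene 58 were higher and 127 lower, and 3 members were higher (IFI27, IFI44L and LAMP3). With dim probe sets left out 47 were higher and 105 lower, and the same 3 members were higher. Of the other pathway genes 2 were higher and 1 lower with array weights, 0 to 2 were higher without single arrays, and 1 was lower with 1 probe set per gene. The numbers were not taken as pairs, because the methods name no block and the labels do not tie same-numbered arrays. Same-numbered arrays deviated from their group means with correlations of 0.09, 0.37 and 0.22. The array 2D replicate 1 deviated most like 3D replicate 3 (0.17). Each 3D array, in turn, deviated most like the 2D array of its own number. Whether the numbers mark pairs is not known, and these correlations cannot settle it. With the replicate block 2 members were higher, IFI27 and LAMP3 (adjusted p = 0.0308 and 0.0471), against 30 probe sets higher and 56 lower over all.

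Without single arrays, the sign of the log2 difference turned in 13 of 49 members, while 35 stayed above 0 and 1 below 0. The same count was not made over all genes. The difference lay between -0.023 and 0.28 for IFNAR1, -0.031 and 0.22 for DHX58, -0.087 and 0.015 for IRF1, -0.16 and 0.10 for IRF2, -0.0046 and 0.32 for IRF3, -0.068 and 0.44 for ISG15, -0.029 and 0.42 for SAMD9, -0.11 and 0.31 for ISG20, -0.25 and 0.080 for TRIM21, -0.22 and 0.30 for IFI35, -0.41 and 0.10 for SP110, -0.051 and 0.36 for PARP14 and -0.33 and 0.32 for DTX3L, which was 0.095 with array weights. The cause was not tested.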

Other observations

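Induced genes outside the members went both ways, and 0 of the 54 measured passed the test. At an unadjusted p under 0.05 (limma), 7 were higher and 6 lower, against 7.46% and 7.12% of all genes. Besides PSMB8 the lower ones were MOV10 at -0.60, APOBEC3C at -0.58, GBP6 at -0.56, TRIM38 at -0.48 and ADAR at -0.44. These were named after their values were seen. PSMB8, a catalytic subunit of the immunoproteasome, had signals of 7.54, 7.60 and 7.72 in 2D and of 6.69, 6.74 and 7.03 in 3D. All its 3D arrays lay below 2D, and its log2 difference was -0.80 (SE 0.16 by limma, adjusted p = 0.0962), from -0.91 to -0.74 when single arrays were left out. PSMB10, another such subunit (picked with its values in view), had 0.51 (adjusted p = 0.275) with all 3D arrays above 2D. IDO1, an enzyme that degrades tryptophan and is induced by interferon gamma, had a mean signal of 4.17 ± 0.16 (SD, n = 3) in 2D and of 5.85 ± 0.91 (SD, n = 3) in 3D. These groups did not overlap, and the difference was 1.68 (adjusted p = 0.14). Without 3D replicate 2, the lowest 3D array, it was 2.18 and passed the test (adjusted p = 0.0138). With any other single array left out IDO1 did not pass, at adjusted p-values of up to 0.404 (limma) and differences down to 1.30.

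CXCL11 and CXCL10, chemokines for activated T cells, and the helicase gene DDX60 were also chosen after their values were seen. Their log2 differences were 0.99, 0.71 and 1.24 (limma, adjusted p = 0.20, 0.209 and 0.193), each with all 3D arrays above all 2D arrays. Without 3D replicate 2 the difference of DDX60 was 1.66 and passed the test (adjusted p = 0.0296). With any other single array left out DDX60 did not pass, at adjusted p-values of up to 0.468 (limma) and differences down to 0.97. Both chemokines were dim in 2D, at means of 5.34 and 4.34, as was IDO1, and whether these signals exceeded background is not known.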
